A study of Mus musculus with 4 samples.

Results

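The mRNAs of the translation initiation factors (eIFs) and elongation factors (eEFs) were compared between risperidone-treated and control 3T3-L1 cells. The members were the genes whose symbol begins with Eif or Eef, leaving out the eIF2α kinases Eif2ak1 to Eif2ak4. They were 62 of the 16051 genes in the table. The rule reads the symbol only, though the group was picked with earlier results of these data known. Of these, 60 had enough signal to be tested, set as 1 FPKM or more on average over the 4 libraries. FPKM counts the fragments of a gene per unit of transcript length and of sequencing depth.

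Translation begins when eIF2 carries the initiator tRNA to the small ribosomal subunit. The eIF3 complex holds that subunit together with its partners, and the cap-binding complex eIF4F brings in the mRNA. The subunit then scans for a start codon under the control of eIF1, eIF1A and eIF5, and eIF5B helps the large subunit to join. In elongation, eEF1A delivers each aminoacyl-tRNA and eEF2 moves the ribosome along by a codon. Several of these factors, with the ribosomal proteins, are encoded by mRNAs that start with a run of pyrimidines, the 5′ terminal oligopyrimidine (TOP) mRNAs.

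3T3-L1 is a mouse embryonic fibroblast line that can be induced to form adipocytes, and the labels call the samples 3T3-L1 murine adipocytes of strain NIH SWISS from embryo tissue. The risperidone group received 100 µM of this antipsychotic for 48 h after differentiation, and the control group, labelled "untreat", received the solvent DMSO in the study's methods. Each group had 2 libraries, and each library held RNA pooled from 3 cultures, so the p-values measure the spread between 2 pools a group. The label for RNA extraction names retinas, yet the summed level of 3 retina markers was only 0.58 to 1.1 FPKM.

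The libraries held 15883712 to 16374119 counts. Some markers of fibroblasts moved with the treatment, and their part in the members' changes was not tested. Of 6 such markers, Col1a1 (380 and 368 FPKM in DMSO, 715 and 674 with risperidone), Thy1 (35.8 and 36.7, then 70.4 and 70.4) and Dlk1 (30.4 and 32.9, then 81.7 and 83.3) rose and Col1a2 (1030 and 992, then 833 and 865) fell, while Vim (616 and 600, then 589 and 589) and Pdgfra (13.5 and 13.3, then 11.9 and 12.6) were not called. Their sum was 2110 and 2040 FPKM in DMSO and 2300 and 2290 with risperidone, and none was at 0. The macrophage marker Cd68 rose from 2.64 and 3.5 to 6.34 and 6.7 FPKM, while Csf1r and Ptprc, the other 2 of that list, stayed at 0.09 FPKM or less. Among 8 adipocyte markers, Lpl (234 and 250, then 192 and 191 FPKM) and Fabp4 (130 and 169, then 59.5 and 71.2 FPKM) fell and Pparg (11.4 to 12.8 FPKM) was not called, while the defining markers Adipoq, Cidec, Cebpa, Retn and Plin1 had at most 14 counts in any library. The labelled cell type is therefore named here by its label only. Risperidone library 2 stood apart: 8 kidney markers summed to 190 FPKM in it and to 1.69 to 2.62 FPKM in the other libraries. In it 4 liver markers summed to 1.74 FPKM and 4 blood markers to 2.61 FPKM, against at most 0.13 and 0.25 FPKM elsewhere. The Y-linked genes Ddx3y, Kdm5d and Uty had 5, 2 and 2 counts in that library and 0 counts in the other libraries. The part of these markers in the results below was not tested.

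Sequences around the annotated transcription start are shown because TOP mRNAs are defined by the letters at their start. Eef1a1, Eef2 and Eif1 are abundant members with a TATA motif near the start, Eif4b and Eif3f are the members that rose most, Eif3m and Eif2s3x were picked for their long pyrimidine runs, and Eif4a1 and Eif5 are members that fell. The RefSeq promoter table for GRCm38.p6, the build in the submitters' processing notes, held a window for 47 of the 62 members. Each sequence runs 5′ to 3′ on the strand of the gene, from 50 bases before the annotated start. Capitals mark a TATA motif (TATAAA or TATATAA) in the windows of Eef1a1, Eef2 and Eif1, and the longest run of C or T in the others.
Eef1a1, chr9:78481695-78481774, minus strand: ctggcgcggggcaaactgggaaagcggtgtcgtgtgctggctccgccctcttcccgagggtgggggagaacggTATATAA
Eef2, chr10:81176581-81176660, plus strand: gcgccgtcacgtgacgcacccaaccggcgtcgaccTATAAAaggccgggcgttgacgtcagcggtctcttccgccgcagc
Eif1, chr11:100319899-100319978, plus strand: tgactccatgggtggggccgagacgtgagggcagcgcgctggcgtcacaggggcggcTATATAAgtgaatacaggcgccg
Eif3f, chr7:108934365-108934444, plus strand: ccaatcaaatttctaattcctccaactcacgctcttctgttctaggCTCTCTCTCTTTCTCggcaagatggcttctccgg
Eif4b, chr15:102073723-102073802, plus strand: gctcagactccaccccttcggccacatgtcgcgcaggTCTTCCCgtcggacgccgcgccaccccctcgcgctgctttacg
Eif3m, chr2:105016998-105017077, minus strand: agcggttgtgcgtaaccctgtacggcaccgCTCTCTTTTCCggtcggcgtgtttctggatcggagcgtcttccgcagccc
Eif2s3x, chrX:94212622-94212701, minus strand: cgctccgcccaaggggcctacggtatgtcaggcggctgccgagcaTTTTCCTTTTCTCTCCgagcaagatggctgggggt
Eif4a1, chr11:69672394-69672473, minus strand: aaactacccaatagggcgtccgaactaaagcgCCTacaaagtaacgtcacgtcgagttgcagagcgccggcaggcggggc
Eif5, chr12:111538051-111538130, plus strand: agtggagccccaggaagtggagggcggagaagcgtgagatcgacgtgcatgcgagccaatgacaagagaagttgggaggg

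The run marked in Eif3f is 15 bases long and crosses the annotated start, and that in Eif2s3x is 16 bases long. In Eif4a1 the longest run from 20 bases before to 50 bases after the start had 3 bases, and in Eif5 a run of 3 bases lay beyond the printed window. A run of at least 8 pyrimidines in that stretch was found in 34.0% of the members with a window (16 of 47) and in 28.5% of all genes with a window (7705 of 27025). By call, it was found in 12 of 31 members that rose, 0 of 4 that fell and 3 of 11 that were not called. The longest run, of 21 bases, was in Eif2b5, which is not printed and rose by 0.23 on the log2 scale. Eif5a and Eef1akmt2, with runs of 12 and 10 bases, were not called. A TATA motif, searched on the gene's strand only from 250 bases before to 50 bases after the start, was in 6 of the 47 members and in 11.1% of all genes. The motifs of Eif3b, Eif2s1 and Eif3f begin at -177, -157 and -61 from the start, outside the printed windows, and that of Eef2 at -15. Matches of the motifs can overlap, and a gene with either was counted once. An annotated start can lie away from the start used in these cells: the motifs of Eef1a1 and Eif1 lie after it, at 23 and 7. These matches are descriptions of letters, not of binding sites.

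Most of the factors were higher with risperidone. By edgeR's quasi-likelihood test on the expected counts, with a Benjamini-Hochberg adjusted p under 0.05 over all 10243 tested genes, 40 of the 60 tested members rose, 7 fell and 13 were not called. Among all tested genes, 32.1% rose and 32.2% fell. The median log2 fold change was 0.26 over the members and 0.00 over all tested genes, and single members ran from -1.18 (Eef1akmt1) to 1.21 (Eif4b). When a change of 0.5 or more on the log2 scale was also required, 21 members rose and 1 fell, against 12.4% and 15.3% of all genes. With 1 library left out in turn, risperidone library 2 included, the log2 fold change of Eif4b ran from 1.18 to 1.25. That of Eef1akmt1 ran from -1.24 to -1.13. In bulk RNA a change in the share of a cell type and a change in RNA per cell cannot be told apart.

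The split depended on the scale. By limma on log2(TPM + 1), where TPM scales length-corrected counts to a fixed sum per library, 25 members rose and 10 fell, against 15.0% and 51.7% of all tested genes. On that scale the median of all genes was -0.22 and that of the members was 0.02, so values on it are read against a shifted centre. With offsets for transcript length and GC content in edgeR, 40 members rose and 6 fell, against 34.1% and 31.4% of all genes. The Spearman correlation of fold change with transcript length was -0.126 over 10151 genes and -0.0569 over the 60 members, given as descriptions across genes.

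**Figure D1:**
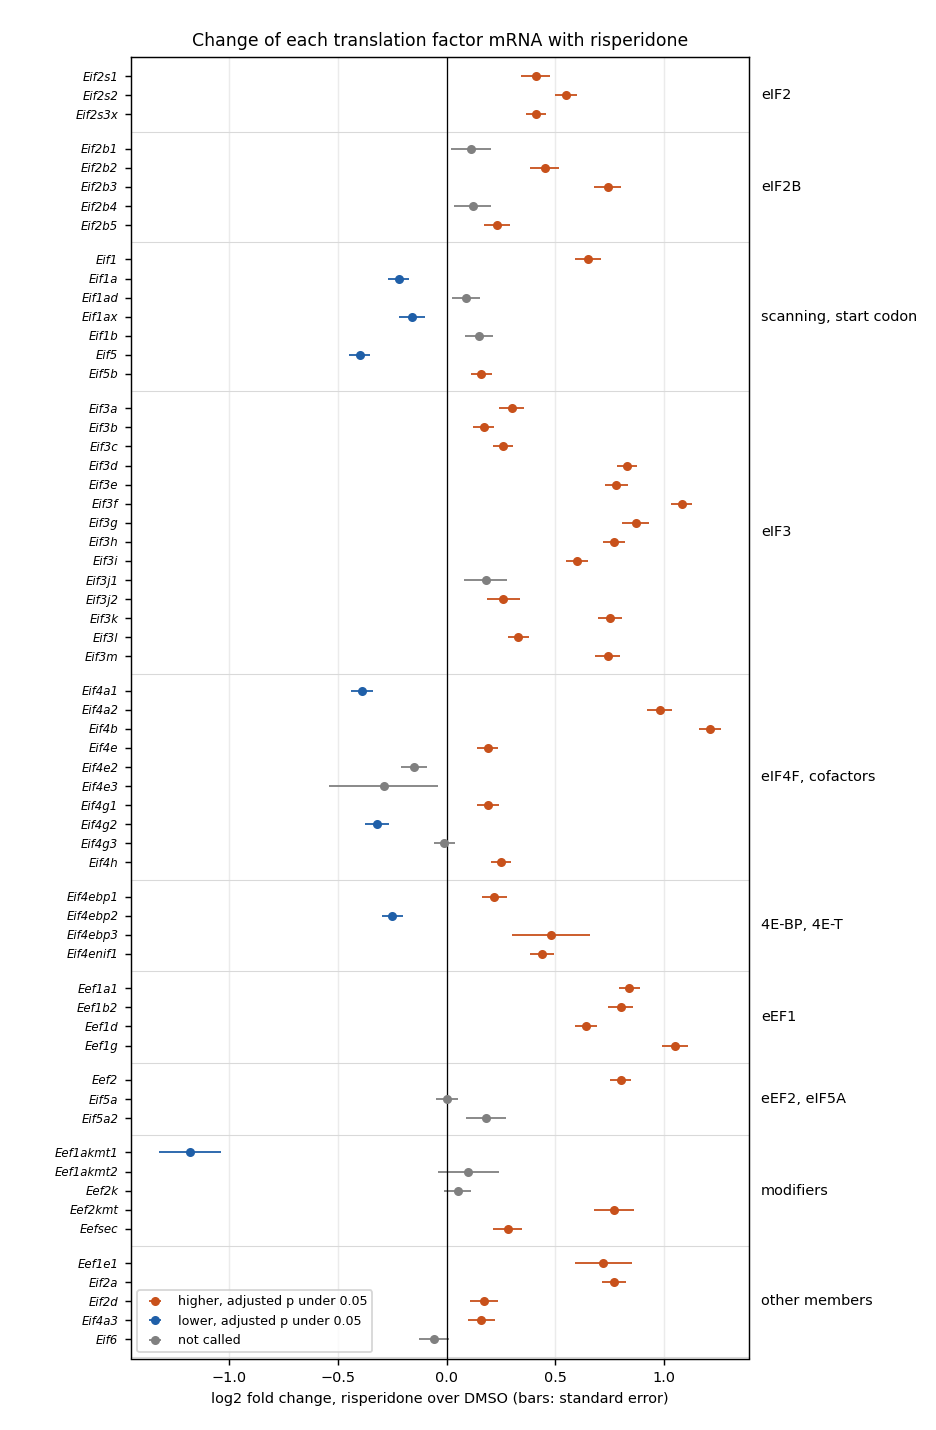
The log2 fold change of each of the 60 tested members, risperidone over DMSO, is plotted with its standard error by complex. Orange points rose, blue points fell and grey points were not called. The 4 eEF1 subunits lie between 0.64 and 1.05, eIF3 lies to the right of 0, and the scanning and eIF4F groups lie on both sides.

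The members took 2.66% and 2.71% of all counts in the DMSO libraries, and 4.04% and 3.88% in the risperidone libraries. Eef1a1 alone, the third most abundant mRNA by mean FPKM, took 1.04% and 1.07%, then 1.81% and 1.72%. Eef2 took 0.407% and 0.402%, then 0.675% and 0.649%. The members without this pair took 1.22% and 1.24%, then 1.55% and 1.51%. The share was higher in both risperidone libraries for each of these groupings, and with 2 libraries a group the smallest p of an exact two-sided permutation test is 0.333, so that test cannot pass 0.05 here and no other test of the shares was run.

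The eEF1 subunits and eEF2 rose together. All 4 eEF1 subunits rose, against 32.1% of all genes, with a median log2 fold change of 0.82, and eEF2 rose by a like amount. Values are FPKM in DMSO libraries 1 and 2 and then risperidone libraries 1 and 2, to 3 significant digits. Eef1a1 (Entrez gene 13627), the GTPase that delivers aminoacyl-tRNA, was at 6290 and 6450 in DMSO and 10900 and 10400 with risperidone. Its groups lay far apart, and its log2 fold change was 0.84 ± 0.0487 (SE, n = 2 a group, edgeR adjusted p = 1.81e-07). Eef1g, a structural subunit of the exchange complex that recharges eEF1A with GTP, was at 431 and 439 in DMSO and 890 and 791 with risperidone. This was the largest change of the complex, 1.05 ± 0.0613 (SE, edgeR adjusted p = 1.83e-07). Eef1b2, an exchange subunit, was at 173 and 184, then 303 and 276 (0.80 ± 0.0586, SE, edgeR adjusted p = 8.73e-07). Eef1d, the other exchange subunit, changed least, from 133 and 141 to 205 and 199 (0.64 ± 0.0492, SE). Each of the 4 subunits also rose on the TPM scale, where 15.0% of all genes rose and 51.7% fell and the median of the 4 was 0.57.

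Eef2, the translocase, was at 1370 and 1360 in DMSO and 2280 and 2180 with risperidone, a log2 fold change of 0.80 ± 0.0487 (SE, edgeR adjusted p = 2.35e-07). Eif5a, which carries the amino acid hypusine and helps ribosomes past difficult peptide bonds, did not follow it. It was at 307 and 316 in DMSO and 300 and 283 with risperidone. Its count-based log2 fold change was 0.00 ± 0.0507 (SE, edgeR adjusted p = 0.968) and ran from -0.05 to 0.05 when 1 library was left out in turn. It was called lower on the TPM scale (-0.24, limma adjusted p = 0.00115), where the median of all genes was -0.22. Its FPKM groups did not overlap. Its paralog Eif5a2 was at 3.84 and 3.84, then 3.97 and 4.28, and was not called. Eif5a holds fractional expected counts, so reads it shares with near-identical sequences were split by the authors' counting.

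The enzymes that modify the elongation factors, described with the specialised elongation factor Eefsec, did not share a direction. Eef1akmt1, a lysine methyltransferase of eEF1A, was at 19.1 and 17.6 in DMSO and 7.43 and 7.59 with risperidone. Its 2 groups were far apart, and its log2 fold change of -1.18 ± 0.142 (SE, edgeR adjusted p = 3.05e-05) was the largest fall among the members. Eef2kmt, a lysine methyltransferase of eEF2, moved the other way, from 8.93 and 7.68 to 12.8 and 13.7 (0.77 ± 0.0914, SE, edgeR adjusted p = 2.89e-05); its counts are fractional. Eefsec, which delivers selenocysteinyl-tRNA, was at 17.9 and 17.5, then 21.0 and 20.6 (0.28 ± 0.0672, SE), a call lost on the TPM scale (0.09, limma adjusted p = 0.242). Eef2k, the kinase that inhibits eEF2, was at 28.3 and 24.6 in DMSO and 25.1 and 27.5 with risperidone. Its groups overlapped, its log2 fold change was 0.05 ± 0.0611 (SE), and the sign turned without DMSO library 2 (-0.01 to 0.11 over the libraries left out). Eef1akmt2 overlapped too (9.19 to 10.2 in DMSO, 9.31 to 10.1 with risperidone), and Eef1akmt3 stayed under the filter at 0.32 to 0.55.

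Taken by symbol, 8 of 11 tested Eef genes rose and 1 fell, with a median log2 fold change of 0.72. Of the 49 tested Eif genes 32 rose and 6 fell, with a median of 0.23. Of all tested genes 32.1% rose and 32.2% fell. The difference between these lists was not tested.

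The eIF3 subunits also rose. Of the 14 eIF3 genes 13 rose and none fell, against 32.1% and 32.2% of all genes, with a median log2 fold change of 0.67. By TPM 8 rose and none fell, against 15.0% and 51.7%. Their mean levels ran from 8.11 FPKM (Eif3j1) to 423 FPKM (Eif3h). Eif3f was at 196 and 196 in DMSO and 393 and 382 with risperidone, and had the largest change, 1.08 ± 0.0474 (SE, edgeR adjusted p = 3.37e-08). Eif3g was at 55.6 and 58.8, then 98.6 and 95.8 (0.87 ± 0.0619, SE). Eif3d, a subunit that can itself bind the cap of some mRNAs, was at 107 and 104, then 177 and 175 (0.83 ± 0.0458, SE). In each of these subunits, named for the largest changes, the risperidone libraries lay well above the DMSO libraries. The share of all genes with groups apart was not counted.

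The other subunits past 0.5 were Eif3e (0.78), Eif3h (0.77), Eif3k (0.75), Eif3m (0.74) and Eif3i (0.60), so 8 of the 14 passed that fold. The remaining 6 had smaller fold changes, among them Eif3j1, which was not called. No subunit lay between Eif3i and Eif3l (0.33). Eif3a, the largest scaffold subunit, was at 100 and 96.2 in DMSO and 118 and 108 with risperidone, a log2 fold change of 0.30 ± 0.0572 (SE, edgeR adjusted p = 9.3e-04). Eif3c (0.26), its scaffold partner, and Eif3b, which binds the RNA-recognition subunits, were also in the lower set. Eif3b was at 94.1 and 97.4, then 102 and 99.8 (0.17 ± 0.0466, SE), and its call was lost without DMSO library 1. On the TPM scale Eif3a, Eif3c, Eif3l and Eif3j2 were no longer called and Eif3b was at -0.07, while the 8 subunits past 0.5 stayed called as higher.

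Eif3j, a loosely bound subunit, is encoded by the near-identical genes Eif3j1 and Eif3j2, whose reads the authors' counting had to divide. Eif3j2 was at 20.2 and 23.3 in DMSO and 23.8 and 24.9 with risperidone (0.26 ± 0.0764, SE, edgeR adjusted p = 0.0125), a call lost without DMSO library 1 and on the TPM scale (0.02, limma adjusted p = 0.843). Eif3j1 was at 8.1 and 7.62, then 8.8 and 7.9, with overlapping groups and no call. The division between them is uncertain.

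**Figure D2:**
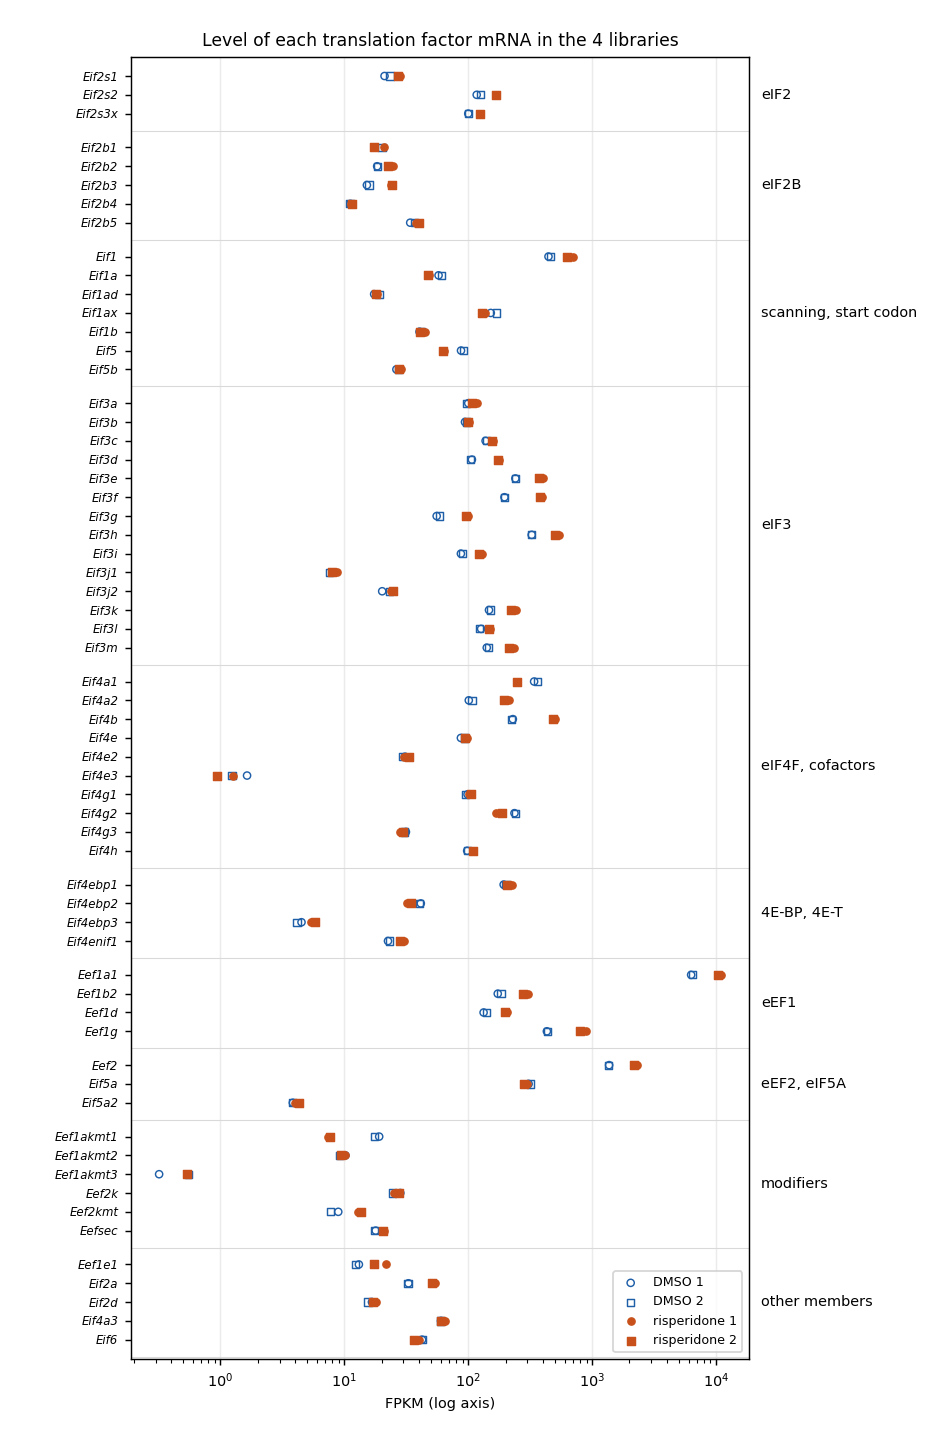
FPKM of each member in each library on a log axis, by complex, with open blue symbols for DMSO and filled orange symbols for risperidone; Eif2s3y is left out, being at 0 in 3 libraries. The 2 libraries of a group lie close together for most genes, and Eef1a1 and Eef2 are the most abundant.

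The subunits of eIF2, the carrier of the initiator tRNA, rose by smaller amounts. The alpha subunit Eif2s1, the target of the stress kinases, was at 21.1 and 23.4 in DMSO and 28.1 and 27.3 with risperidone (0.41 ± 0.0668, SE, edgeR adjusted p = 2.67e-04). The beta subunit Eif2s2 was at 117 and 126, then 166 and 166 (0.55 ± 0.0505, SE). The gamma subunit Eif2s3x was at 100 and 101, then 124 and 125 (0.41 ± 0.0456, SE). All 3 were called higher, against 32.1% of all genes, and all 3 rose on the TPM scale too, where 15.0% of all genes rose. The Y-linked gamma gene Eif2s3y had 5 counts in risperidone library 2 and 0 counts in the other libraries, and was under the filter. It was listed above 0 only in the library that held the kidney markers and the other Y-linked counts.

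The exchange factor eIF2B, which recharges eIF2 with GTP, changed unevenly: 3 of its 5 subunits rose and none fell, against 32.1% and 32.2% of all genes, with Eif2b1, Eif2b4 and Eif2b5 below 0 on the TPM scale. Eif2b3 was at 15.2 and 15.8 in DMSO and 23.7 and 24.3 with risperidone (0.74 ± 0.0632, SE, edgeR adjusted p = 2.54e-06). Eif2b2 was at 18.4 and 18.5, then 24.6 and 22.5 (0.45 ± 0.0665, SE). Eif2b5, the catalytic subunit, was at 34.0 and 37.0, then 37.8 and 40.3 (0.23 ± 0.0605, SE), lost its call without DMSO library 1 and was at -0.0041 on the TPM scale. Eif2b4 was at 11.2 and 11.1, then 11.4 and 11.5, and was not called. Eif2b1 was at 17.6 and 20.1 in DMSO and 20.8 and 17.4 with risperidone, so that its groups overlapped, and its log2 fold change of 0.11 ± 0.0922 (SE) ran from -0.04 to 0.25 as libraries were left out, turning without risperidone library 1.

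The scanning and start-codon factors included 2 of 7 that rose and 3 that fell, near the 32.1% and 32.2% of all genes. On the TPM scale 1 rose and 3 fell, against 15.0% and 51.7%. Eif1, which keeps the scanning ribosome from stopping at wrong codons, was at 444 and 464 in DMSO and 699 and 628 with risperidone (0.65 ± 0.0597, SE, edgeR adjusted p = 4.47e-06). Eif5, which opposes Eif1 by promoting the commitment to a start codon, was at 87.4 and 91.0 in DMSO and 64.0 and 62.1 with risperidone. Its log2 fold change was -0.40 ± 0.0478 (SE, edgeR adjusted p = 2.73e-05), so this pair moved apart, and both kept their direction on the TPM scale. The eIF1A genes were lower by less: Eif1a went from 57.6 and 60.7 to 48 and 47.3 (-0.22 ± 0.0477, SE, edgeR adjusted p = 2.06e-03). That call was lost without DMSO library 2. Eif1ax went from 152 and 168 to 137 and 129 (-0.16 ± 0.0588, SE, edgeR adjusted p = 0.03), a call lost without DMSO library 2 and without risperidone library 2. With offsets for length and GC it was at -0.03 (edgeR adjusted p = 0.665). Eif5b, the subunit-joining GTPase, was at 26.3 and 27.4, then 28.5 and 27.6 (0.16 ± 0.0474, SE), a call lost without DMSO library 1 and at -0.08 on the TPM scale. Eif1b (40.4 and 42.2, then 44.4 and 41.0) and Eif1ad (17.4 and 19.0, then 18.2 and 17.9) overlapped between groups. Eif1 and Eif5b hold fractional counts.

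In the cap-binding complex and its cofactors 5 of 10 members rose and 2 fell, against 32.1% and 32.2% of all genes. The TPM scale gave 2 higher and 3 lower, against 15.0% and 51.7% of all genes. Eif4b, which stimulates the helicase eIF4A, was at 229 and 224 in DMSO and 500 and 481 with risperidone. Its log2 fold change of 1.21 ± 0.0502 (SE, edgeR adjusted p = 2.45e-08) was the largest rise among the members. Eif4h, a related cofactor, changed far less, from 98.0 and 98.8 to 110 and 110 (0.25), and was not called on the TPM scale.

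The helicase genes went opposite ways. Eif4a1 was at 340 and 360 in DMSO and 249 and 249 with risperidone (-0.39 ± 0.0496, SE, edgeR adjusted p = 4.37e-05). Eif4a2 was at 101 and 107, then 215 and 196 (0.98 ± 0.057, SE, edgeR adjusted p = 1.79e-07). Both kept their direction and call on the TPM scale, at -0.63 and 0.83. Of the summed FPKM of this pair, Eif4a2 held 22.9% in each DMSO library and 46.3% and 44.0% in the risperidone libraries. The sum itself was 440 and 468 in DMSO and 464 and 445 with risperidone, and overlapped between groups.

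The scaffold genes differed in their changes. Eif4g1, the main eIF4G, was at 98.7 and 95.2 in DMSO and 101 and 106 with risperidone (0.19 ± 0.0489, SE, edgeR adjusted p = 5.98e-03), a call lost without DMSO library 2 and at -0.05 on the TPM scale. Eif4g2, which lacks the site for eIF4E, was at 236 and 239, then 169 and 188 (-0.32 ± 0.0557, SE, edgeR adjusted p = 4.45e-04), and was lower on the TPM scale too. Eif4g3 was at 31.4 and 30.7, then 28.0 and 29.7. Its FPKM did not overlap, yet its count-based log2 fold change was -0.01 ± 0.0478 (SE), and the sign turned when DMSO library 1 or risperidone library 1 was left out. It was called lower on the TPM scale (-0.25, limma adjusted p = 0.00818), where the median of all genes was -0.22. The share of Eif4g1 in the summed FPKM of the 3 genes was 26.9% and 26.1% in DMSO and 34.0% and 32.7% with risperidone, while that of Eif4g2 was 64.5% and 65.5%, then 56.7% and 58.1%. The sum itself was lower with risperidone, at 366 and 365, then 298 and 324.

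The cap-binding protein Eif4e was at 87.2 and 92.7 in DMSO and 98.2 and 94.7 with risperidone (0.19 ± 0.0483, SE, edgeR adjusted p = 4.65e-03). Its call was lost without DMSO library 1 and its value was -0.04 on the TPM scale. Its share among the 3 cap-binding paralogs overlapped between groups (72.8% and 75.2%, then 75.5% and 73.5%). Eif4e2, a paralog that binds the cap without recruiting eIF4G, was at 30.8 and 29.3, then 30.5 and 33.1, with a count-based log2 fold change of -0.15 ± 0.0613 (SE) that was not called. Its effective length as implied by count and FPKM fell by 0.32 on the log2 scale, the single member of 55 with a change over 0.2, against 67 of 7715 genes, so its counts and FPKM do not measure the same change. Eif4e3 was near the filter at 0.94 to 1.64 and was not called.

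**Figure D3:**
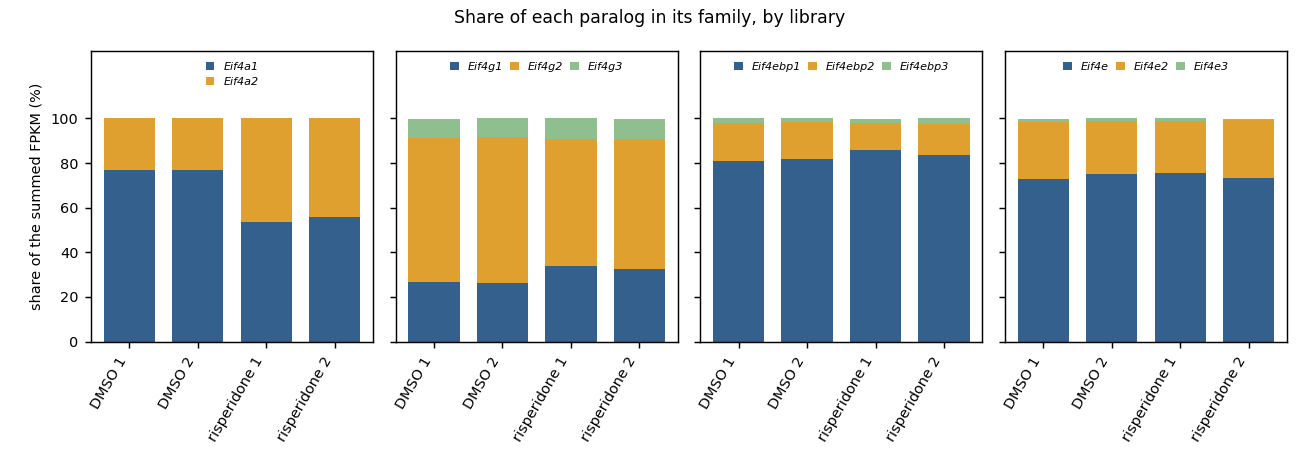
Stacked bars give the share (%) of each paralog in the summed FPKM of its family, per library. The Eif4a2 share rises from 22.9% in both DMSO libraries to 46.3% and 44.0% with risperidone, while the Eif4e shares overlap between groups.

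Of the 4 inhibitors of eIF4E, 3 rose and 1 fell, against 32.1% and 32.2% of all genes, and on the TPM scale 1 rose and 1 fell, against 15.0% and 51.7%. Eif4ebp1, the main 4E-BP by level in these cells, was at 193 and 202 in DMSO and 226 and 204 with risperidone (0.22 ± 0.0568, SE, edgeR adjusted p = 5.47e-03). It was -0.03 on the TPM scale, and risperidone library 2 lay just above the higher DMSO library. Eif4ebp2 fell from 41.4 and 40.5 to 32.0 and 34.3 (-0.25 ± 0.0476, SE, edgeR adjusted p = 7.4e-04), also on the TPM scale. Eif4ebp3, the least abundant, was at 4.51 and 4.14, then 5.43 and 5.8 (0.48 ± 0.178, SE, edgeR adjusted p = 0.0361), a call lost without either DMSO library and without risperidone library 2. Eif4enif1 (4E-T), which carries eIF4E to the nucleus and to P-bodies, rose from 22.5 and 23.3 to 30.1 and 28.3 (0.44 ± 0.0557, SE, edgeR adjusted p = 4.38e-05). Of the summed 4E-BP FPKM, Eif4ebp1 held 80.8% and 81.9% in DMSO and 85.8% and 83.6% with risperidone.

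Among 5 members with roles outside these complexes, 4 rose and none fell, against 32.1% and 32.2% of all genes. By TPM 2 rose and 1 fell, against 15.0% and 51.7%. Eif2a, an eIF2-independent tRNA-binding factor, was at 32.9 and 32.6 in DMSO and 53.7 and 51.1 with risperidone (0.77 ± 0.0546, SE, edgeR adjusted p = 6.52e-07). Eef1e1, a component of the multi-tRNA synthetase complex, was at 13.1 and 12.3, then 21.6 and 17.4 (0.72 ± 0.132, SE, edgeR adjusted p = 6.68e-04). The remaining calls were weak. Eif2d, a non-canonical initiation and recycling factor, was at 16.7 and 15.5, then 18.0 and 16.9 (0.17 ± 0.0648, SE, edgeR adjusted p = 0.0421). Eif4a3, a core protein of the exon junction complex, was at 60.3 and 59.9, then 65.4 and 59.8 (0.16 ± 0.0623, SE, edgeR adjusted p = 0.0439), and its FPKM overlapped between groups. Both calls were lost without either DMSO library and without risperidone library 1, and both values were below 0 on the TPM scale. Eif6, which keeps the large subunit from joining too early, was at 42.4 and 42.5, then 39.7 and 36.3. It was not called (-0.06 ± 0.0691, SE), and its sign turned without risperidone library 2. Its FPKM groups did not overlap, and it was called lower by limma on the TPM scale (-0.30, adjusted p = 0.00106) and on log2(FPKM + 1) (-0.16, adjusted p = 0.0403). The medians of all genes on these scales were -0.22 and -0.08.

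The 9 members on a list of TOP mRNAs were Eif3e, Eif3f, Eif3h, Eif4b, Eef1a1, Eef1b2, Eef1d, Eef1g and Eef2. Like the other lists, it was chosen with earlier results of these data known. All 9 rose, with log2 fold changes of 0.64 to 1.21 and a median of 0.80. On the TPM scale all 9 rose too, against 15.0% of all genes, with a median of 0.56. Of the 51 other tested members 31 rose and 7 fell, with a median of 0.19. Among all tested genes 32.1% rose, and whether the TOP members differ from the other members was not tested. Their mean levels ran from 169 to 8500 FPKM, in the abundant part of the plot of all tested genes. Of these 9 genes 5 had a promoter window, and 3 of the 5 held a run of at least 8 pyrimidines near the annotated start. The longest runs of Eif4b and Eef1b2 were 7 and 5 bases. The run of Eef1a1 begins at -5, before its TATA motif at 23, so it need not lie in the mRNA.

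**Figure D4:**
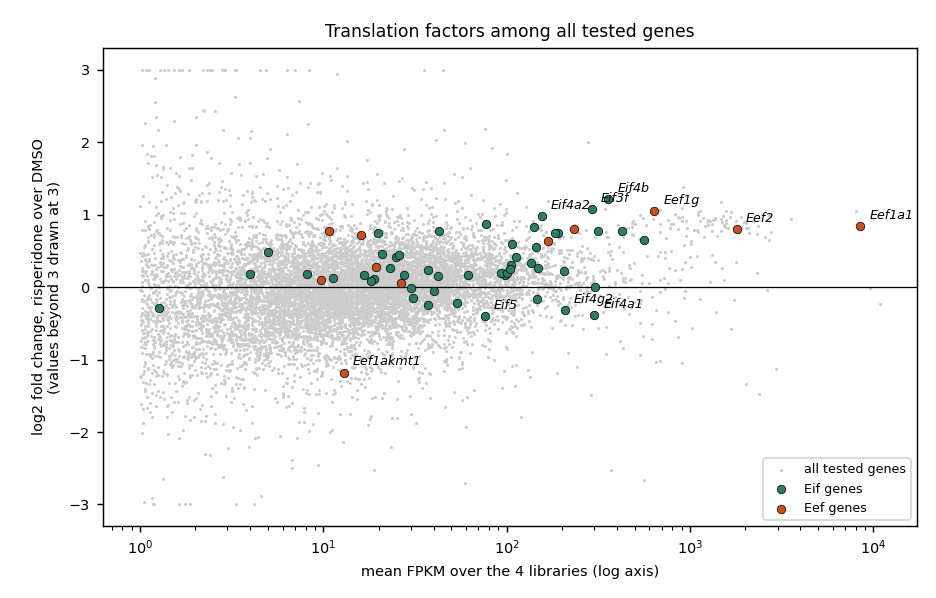
Log2 fold change against mean FPKM for the 10243 tested genes (grey), with the tested Eif genes in green and the tested Eef genes in orange. Eef1a1, Eef2, Eef1g, Eif4b and Eif3f lie at 0.80 to 1.21, and Eif4a1, Eif4g2 and Eif5 lie at -0.40 to -0.32 among abundant genes.

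Of 49 other genes of translation in 6 lists, 17 rose, 13 fell and 19 were not called, near the 32.1% and 32.2% of all genes. Their median log2 fold change was 0.10, against 0.00 for all genes. On the TPM scale 9 rose and 21 fell, against 15.0% and 51.7% of all genes. Among cap and poly(A) partners 7 of 14 rose and 5 fell, while by TPM 3 rose and 6 fell. Pabpc4, a poly(A)-binding protein, rose from 55.3 and 57.4 to 117 and 110 (1.09), and Pabpc1 from 1020 and 1000 to 1640 and 1580 (0.77). Pdcd4, which inhibits eIF4A, was at 118 and 114 in DMSO and 51.5 and 58.1 with risperidone, a log2 fold change of -1.0 ± 0.0557 (SE, edgeR adjusted p = 1.36e-07). Rps6kb1, the S6 kinase that phosphorylates Pdcd4 and eIF4B, went from 31.9 and 27.4 to 17.8 and 18.0 (-0.77).

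Among 7 initiation and recycling helpers 4 rose and none fell, against 32.1% and 32.2% of all genes. By TPM 4 rose and 1 fell, against 15.0% and 51.7%. Tpt1, itself a TOP mRNA, rose from 2500 and 2610 to 4840 and 4330 (0.94), the ribosome-recycling ATPase Abce1 by 0.53 and Mcts1 by 0.44 on the log2 scale. The 6 genes of the eIF2α kinases and phosphatase subunits included 4 that fell and none that rose, against 32.2% of all genes lower. With offsets for length and GC 2 of the 6 were lower, and the calls of Eif2ak1 and Eif2ak4 were lost (edgeR adjusted p = 0.152 and 0.232). Ppp1r15b, which directs the phosphatase to eIF2α without stress, was at 10.5 and 10.2, then 6.06 and 6.65 (-0.61 ± 0.065, SE, edgeR adjusted p = 1.29e-05). The kinase genes Eif2ak2 (-0.46), Eif2ak1 (-0.20) and Eif2ak4 (-0.20) were lower, the call of Eif2ak1 being lost without DMSO library 1, and the stress-induced Ppp1r15a (13.2 to 16.1 over the 4 libraries) and Eif2ak3 (10.5 and 9.69, then 10.3 and 10.3) overlapped between groups.

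Among 5 termination and rescue factors 2 rose, Hbs1l (0.66) and Gspt1 (0.24, lost without DMSO library 1, and 0.00 on the TPM scale), and Gspt2 (-0.96) fell, against 32.1% and 32.2% of all genes. Among 8 enzymes of hypusine and diphthamide, the modifications of eIF5A and eEF2, 3 rose and 1 fell, against 32.1% and 32.2% of all genes, and on the TPM scale 1 rose and 3 fell, against 15.0% and 51.7%. Dhps, which makes the hypusine precursor on eIF5A, was at 11.9 and 13.0, then 20.1 and 19.9 (0.75 ± 0.0833, SE, edgeR adjusted p = 1.69e-05). The calls of the diphthamide enzymes Dph5 (0.47) and Dph1 (0.40) were lost on the TPM scale (limma adjusted p = 0.0798 and 0.242) and when DMSO library 1 or DMSO library 2, respectively, was left out. Dph6 was the enzyme that fell (-0.22), a call lost without either DMSO library and without risperidone library 1. With offsets for length and GC it was not called either (edgeR adjusted p = 0.06). Dohh, which completes hypusine, was not called (-0.14). Among 9 mitochondrial factors 1 rose and 2 fell: Gfm1 (0.34), Mtrf1l (-0.65) and Mtif2 (-0.17), the last a call lost whichever library was left out. Of all genes 32.1% rose and 32.2% fell. By TPM 0 of the 9 rose and 4 fell, against 15.0% and 51.7% of all genes, and the call of Gfm1 was lost (0.10, limma adjusted p = 0.131). The median of the mitochondrial list was -0.10.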

How the data were processed

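RNA from 3T3-L1 cells was sequenced on an MGISEQ instrument in 4 libraries. The submitters' processing notes name GRCm38.p6, Bowtie2, RSEM and DESeq2. The authors deposited expected counts, FPKM and TPM per gene and library, and an expected count can divide a shared read between genes. Whether counting used strand is not given in the sources used here, so reads of overlapping antisense genes cannot be told apart. The authors' per-group averages were not used.

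Expected counts were rounded and tested with edgeR 4.0.16 (R 4.3.3), TMM scaling, quasi-likelihood F test and Benjamini-Hochberg adjustment over the 10243 genes at 1 FPKM or more on average. The standard error is the log2 fold change over the square root of F. The biological coefficient of variation was 0.0468. Libraries held 15883712 to 16374119 counts, and 3 counts equalled 0.183 to 0.189 CPM. The 2 libraries of a group were not duplicates: 12.4% (DMSO) and 23.5% (risperidone) of genes differed by a chi-square test at p under 0.05. Counting error alone would pass a share of about 0.05 of the genes. limma 3.58.1 was used on FPKM and TPM, and DESeq2 1.42.0 on counts, as alternatives. Figures were drawn with matplotlib 3.10.9. The fits were tested on simulated data.

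The members, the complexes and the other gene lists were chosen with earlier results of these data known. Every member is named. Full values are given for up to 3 called members with the largest change in each complex, for core members, and for each member whose call was lost or whose direction turned when 1 library was left out. For the other lists up to 3 called genes with the largest change are named, and the others named there were chosen after their values were seen.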

Additional observations from a re-analysis of the deposited data

How the results depend on the processing

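The main counts were 40 members higher and 7 lower. Over the filters, scalings and tools tried on counts and FPKM, 30 to 40 were higher and 6 to 8 lower. On the TPM scale 25 were higher, and of the other translation genes 9 were higher and 21 lower, against 17 and 13. With a change of 0.5 or more also required on the log2 scale, 21 members were higher and 1 lower. RLE size factors changed the direction or call of 0 of the 60 members, and DESeq2 lost the calls of Eif1ax, Eif4ebp3, Eif2d and Eif4a3. Offsets for length and GC lost those of Eif1ax, Eif4ebp3 and Eif4a3 and gained Eif3j1 and Eif5a2 (edgeR adjusted p = 0.0139 and 0.00811). No filter lost Eif1ax, Eif3j2, Eif2d and Eif4a3, and 5 FPKM lost Eif2d and Eif4a3. Library size as the only scaling lost 10 calls and limma on FPKM lost 9, among them, in both, Eif2b5, Eif5b, Eif3b, Eif3j2, Eif4e, Eif4g1, Eif4ebp1, Eif2d and Eif4a3. On the TPM scale 7 further calls were lost with the direction kept: Eif3a, Eif3c, Eif3j2, Eif3l, Eif4h, Eif4ebp3 and Eefsec. The causes of these losses were not tested.

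The labels number the replicates but do not say that a number marks a shared culture, and the deviations of same-numbered libraries correlated at -0.103 over 9221 genes. With the replicate block 39 members were higher and 8 lower, and with a crossed replicate block, an alternative chosen after seeing the data, 40 were higher and 8 lower.

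The direction turned in these cases, as log2 fold changes. On the TPM scale, whose all-gene median was -0.22: Eif2b1 -0.13, Eif2b4 -0.10, Eif2b5 -0.0041, Eif1ad -0.15, Eif1b -0.09, Eif5b -0.08, Eif3b -0.07, Eif3j1 -0.05, Eif4e -0.04, Eif4g1 -0.05, Eif4ebp1 -0.03, Eif5a -0.24, Eif5a2 -0.03, Eef1akmt2 -0.13, Eef2k -0.15, Eif2d -0.03 and Eif4a3 -0.08. With library size as the only scaling (all-gene median -0.09): Eif1ad -0.01, Eif5a -0.09 and Eef2k -0.05. With limma on FPKM at either pseudocount, 1 or 0.1: Eif1ad -0.01, Eif4e2 0.08, Eif5a -0.10 and Eef2k -0.01. With offsets: Eif4g3 0.06, Eif5a -0.05 and Eef2k -0.06. With a mean of at least 5 FPKM: Eif5a -0.02. With 1 library left out the range was -0.04 to 0.25 for Eif2b1, -0.04 to 0.02 for Eif4g3, -0.05 to 0.05 for Eif5a, -0.01 to 0.11 for Eef2k and -0.13 to 0.01 for Eif6. The cause was not tested. Standard errors were large at low counts, such as 0.252 for Eif4e3 (36 to 64 counts), 0.178 for Eif4ebp3 (67 to 95 counts) and 0.14 for Eef1akmt2 (140 to 159 counts).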
